A study of Mus musculus with 31 samples.

Results

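Small hyperplasias are the earliest lesions that were dissected from the mammary glands of K5ΔNβcat mice, and they were compared here with mammary tissue of control mice. Members were taken from the sample labels, which gave 5 arrays of small hyperplasia and 4 arrays of control tissue, 9 of the 31 samples of the series. The comparison itself was chosen with earlier results of these data known. K5ΔNβcat mice carry a transgene that encodes an N-terminally truncated, stabilised β-catenin under the promoter of *Krt5*, a keratin gene of the basal layer, a promoter active in basal cells of the mammary epithelium and in other stratified epithelia such as skin. The controls are given the genotype control with no further detail. All samples have the strain C57BL6 in their labels, while the methods give a mixed 129SV/C57BL6 background, and neither source gives an age for the dissected tissue. Another 5 arrays of large hyperplasias and 11 of tumors from K5ΔNβcat mice shared the model, and large hyperplasias were also compared with small ones. The labels do not say whether the hyperplasias came from separate animals, and the p-values cover only the variation from one array to the next, which may be technical. Each sample is a piece of whole gland, and in such bulk tissue fewer cells of a type and less RNA per cell cannot be told apart.

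β-catenin is the effector of canonical Wnt signalling. In the absence of a Wnt ligand it is phosphorylated at its N-terminus and degraded, and a β-catenin without that part escapes degradation, enters the nucleus and acts on TCF/LEF factors. These switch on genes that include inhibitors of the pathway itself. In the mammary gland, Wnt signalling is known for the formation of the embryonic bud and for stem cells of the basal layer, and in skin it is known for the induction of hair follicles. The adult gland has a luminal layer, a basal layer whose cells are contractile, and a fatty stroma with blood vessels, fibroblasts and immune cells.

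Sequences are shown for 2 of the Wnt antagonists and β-catenin targets that were called higher, since the letters CTTTGAA or CTTTGAT, a core that TCF/LEF factors are known to bind, stand within 250 bases of their start site. *Sp5* encodes a transcription factor and *Dkk1* a secreted inhibitor of Wnt co-receptors. Both sequences come from RefSeq (build GRCm38.p6), are written 5′ to 3′ on the strand of the gene and end just before its most upstream start, and the capitals mark the match. That of *Sp5* covers chr2:70474673-70474922 on the + strand, with the match starting 104 bases before the start site, and that of *Dkk1* covers chr19:30549497-30549746 on the - strand, with the match starting 117 bases before it.
Sp5: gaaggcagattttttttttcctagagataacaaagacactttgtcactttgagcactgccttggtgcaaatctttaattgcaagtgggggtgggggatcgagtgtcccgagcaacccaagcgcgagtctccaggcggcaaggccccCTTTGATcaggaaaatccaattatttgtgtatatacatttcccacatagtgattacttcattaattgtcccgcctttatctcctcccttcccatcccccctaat
Dkk1: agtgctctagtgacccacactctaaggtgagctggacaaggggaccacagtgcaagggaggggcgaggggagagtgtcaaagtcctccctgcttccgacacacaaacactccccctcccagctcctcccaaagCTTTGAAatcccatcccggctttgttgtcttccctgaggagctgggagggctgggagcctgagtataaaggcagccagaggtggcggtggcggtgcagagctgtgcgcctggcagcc
Searched on both strands in windows that reach 250 bases before and 50 after a start, where the reverse letters are TTCAAAG and ATCAAAG, these letters were found in 2842 of all 32851 promoters (8.651%). They were found in 142 of 2247 promoters of genes called higher in small hyperplasias (6.32%), in 1 of 12 promoters of genes of Wnt feedback and in 3 of 29 promoters of β-catenin targets, where 11 of 22 and 24 of 31 genes could be matched to a promoter. A match describes the letters only.

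The arrays were of similar quality. After scaling, the median signal ranged from 27.1 to 30.1 in control tissue and from 28.3 to 29.97 in small hyperplasias, and Spearman correlations lay between 0.931 and 0.963 among small hyperplasias and between 0.903 and 0.923 among control tissues. There were 2 arrays that stood apart from their group. Control tissue 1 had a mean of macrophage genes 0.64 above the control mean on the log2 scale, where the other controls lay between -0.27 and -0.17, and small hyperplasia 2 had a mean of mitosis genes 0.84 above the control mean, where the other 4 lay between 1.45 and 1.57. When both arrays were left out, 3448 probe sets were higher and 2943 lower. Both epithelial layers and the fatty stroma were present in every sample, as the signals of *Krt14*, *Krt18* and *Adipoq* below show.

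Of 23489 probe sets with a group median of at least 30, 3945 were higher (16.8% of those tested) and 3388 were lower (14.4%) in small hyperplasias than in control tissue, by limma on log2 of the signal plus 16 at an adjusted p under 0.05. Reduced to 1 probe set per gene, 2237 of 11594 genes were higher (19.3%) and 1776 were lower (15.3%), 34.6% in either direction. These shares are the background against which counts in the gene lists are to be read. The lists were chosen with earlier results of these data known, so that a count above these shares describes a list and is no test. The rises were larger than the falls. With 16 added to the signals, a difference of at least 2-fold was found for 600 of the genes called higher and 174 of those called lower. A difference of at least 4-fold on this scale was found for 147 and 3. The 5 and 4 signals did not overlap for 3053 of the tested genes (26.3%). The median log2 difference over all 18193 genes was -0.03.

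**Figure D1:**
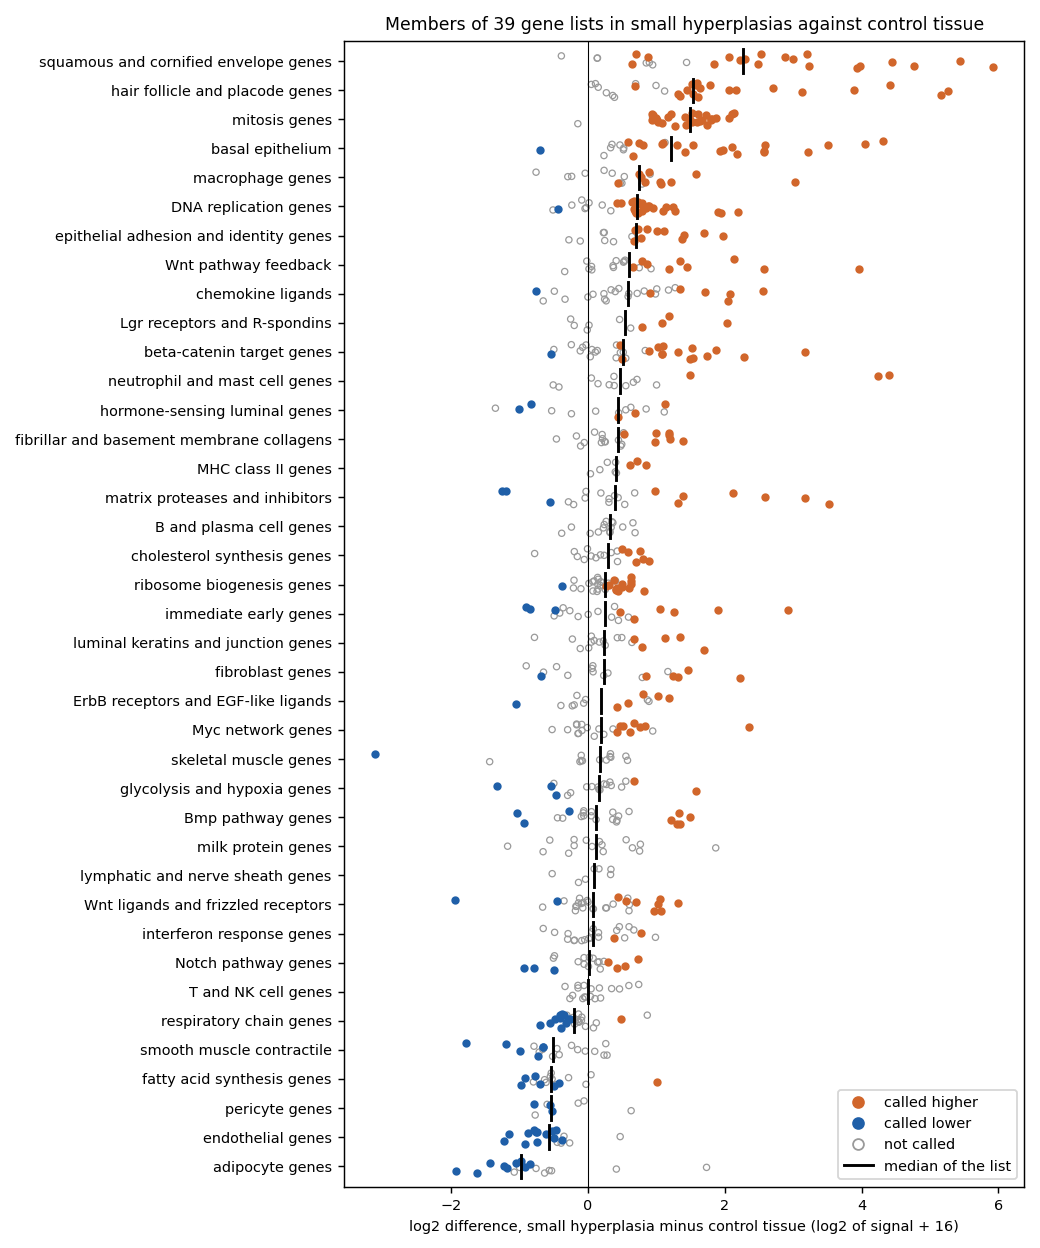
Log2 difference between small hyperplasia (n = 5) and control tissue (n = 4) for each member of 39 gene lists, with 1 point per gene on the array, filled where called higher (orange) or lower (blue) and open where not called or not tested. Black bars are list medians, which range from 2.26 for squamous genes to -0.97 for adipocyte genes.

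The transcript of β-catenin itself was higher in the lesions. *Ctnnb1* had signals of 3594, 3014, 3419, 3834 and 3906 in small hyperplasias 1 to 5 and of 2391, 2449, 3054 and 2579 in control tissues 1 to 4, a log2 difference of 0.44 ± 0.09 (SE, adjusted p = 6.8e-04). Only small hyperplasia 2 fell below the highest control. The other probe sets of the gene gave 1.02 (adjusted p = 1.5e-05) and 1.39 (adjusted p = 1.2e-08), both with no overlap between the groups. Which of the probe sets read the transgene as well as the endogenous gene was not tested.

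Several antagonists of Wnt signalling rose in small hyperplasias, and no member of their list was called lower. With single arrays left out, or under other settings with a test, at most 1 member was called lower. Of 19 tested genes of Wnt pathway feedback, 9 were higher, and the median over 22 members on the array was 0.60. The largest rise was that of *Wif1*, which encodes a secreted protein that binds Wnt ligands. It had signals of 842, 577, 597, 520 and 486 in small hyperplasias and of 29.8, 19.6, 23.5 and 20.4 in control tissue, so that it was at least 19.8-fold higher (adjusted p = 1.1e-06). *Notum*, a secreted enzyme that removes the lipid of Wnt ligands, had signals of 207, 111, 132, 129 and 199 against 29.3, 29.5, 9.06 and 25.3 and was at least 5.02-fold higher (adjusted p = 4.9e-06). Neither gene passed a signal of 30 on any control array. *Sostdc1*, an inhibitor of Wnt and Bmp signals, rose by 2.58 ± 0.56 (SE, adjusted p = 1.1e-03), and *Znrf3*, a ligase that removes Wnt receptors from the cell surface, by 1.18 ± 0.23 (adjusted p = 3.5e-04). *Axin2*, a scaffold of the destruction complex and a common reporter of the pathway, had signals of 193, 152, 172, 151 and 283 against 61.9, 96.5, 90.7 and 142. Its difference of 0.87 ± 0.22 (adjusted p = 3.8e-03) was smaller than those of the secreted inhibitors, although no small hyperplasia lay below a control. The signals of *Dkk1* were 26.9, 10.8, 104, 53.8 and 32.5 against 2.51, 4.42, 0.599 and 17.2, and its call (1.34 ± 0.51, adjusted p = 4.5e-02) was lost without any 1 of 7 arrays, that is each small hyperplasia but 2 and each control but 4 (adjusted p up to 0.10).

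Targets of β-catenin divided into some that rose strongly and others that did not differ beyond the spread. Among 26 tested, 15 were higher and 1 was lower, with a median of 0.52 over 31 members. *Mmp7*, a matrix protease, had signals of 341, 23.5, 270, 228 and 267 against 8.31, 4.66, 2.09 and 8.26 and was at least 5.59-fold higher (adjusted p = 5.9e-04), with small hyperplasia 2 alone far below the other lesions. *Vcan*, a matrix proteoglycan, rose by 2.28 ± 0.24 (adjusted p = 1.8e-07), and *Ptgs2*, the inducible cyclooxygenase, was at least 2.14-fold higher (adjusted p = 2.4e-04). *Sp5* had signals of 40.9, 25.7, 32.0, 33.2 and 71.9 against 7.11, 0.589, 3.03 and 1.26 and was at least 1.27-fold higher (adjusted p = 1.1e-04). *Lef1*, the factor that β-catenin binds, had signals of 38.4, 27.7, 38.96, 30.4 and 87.9 against 15.6, 6.51, 17.7 and 22.9 (0.89 ± 0.28, adjusted p = 1.6e-02), and its call was lost without small hyperplasia 5 or without control tissue 2 (adjusted p up to 0.066), and with signals below 30 set to 30 (0.46, adjusted p = 0.16). *Ccnd1*, the gene of cyclin D1, was not called, with signals of 1031, 1032, 1192, 951 and 1202 against 798, 1256, 917 and 1234 and a difference of 0.06 ± 0.25 (adjusted p = 0.88). The member that fell was *Met*, the receptor of hepatocyte growth factor (-0.53 ± 0.18, adjusted p = 2.9e-02), and that call was lost without small hyperplasia 1 or 3 or control tissue 2 (adjusted p up to 0.13).

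Of 22 tested Wnt ligands and receptors, 8 were higher and 2 lower, with a median of 0.08 over 30 members. Of all tested genes 19.3% were higher and 15.3% lower, so that the lower count is under the share of all genes. *Wnt5a*, a ligand of the non-canonical branch, had signals of 269, 244, 381, 304 and 325 against 117, 75.2, 118 and 146 and rose by 1.31 ± 0.36 (adjusted p = 6.8e-03). *Wnt10a*, a ligand of skin and its appendages, had signals of 51.1, 37.6, 59.5, 42.4 and 80.6 against 32.9, 3.07, 20.8 and 17.0 (1.07 ± 0.22, adjusted p = 5.4e-04). The receptor *Fzd4*, which endothelial cells are known to use, moved the other way, with signals of 622, 1442, 831, 558 and 778 against 2935, 2852, 2904 and 3860, a fall by 1.94 ± 0.21 (adjusted p = 1.7e-07). The highest small hyperplasia was array 2, and it still lay below every control. The co-receptor *Lrp5* was near background (13.6 to 20.5 against 19.9 to 41.9), with a difference of -0.46 ± 0.15 (adjusted p = 2.1e-02). Its call was lost without small hyperplasia 3 (adjusted p = 0.053), and without control tissue 1 or 2 the gene missed the cutoff and was not tested. Among 6 tested genes of Lgr receptors and R-spondins, which amplify Wnt signals, 4 were higher and none was lower (median 0.55). Only 2 were higher without small hyperplasia 1, 3 or 5 or control tissue 1, 3 or 4. *Lgr6*, a stem cell marker of hair follicles, had signals of 360, 333, 341, 311 and 507 against 46.9, 107, 98.8 and 67.7 (2.04 ± 0.46, adjusted p = 1.5e-03). *Lgr5* had signals of 307, 435, 359, 291 and 426 against 117, 177, 181 and 176 (1.09 ± 0.41, adjusted p = 4.6e-02), and although the groups did not overlap its call was lost without any 1 of the 9 arrays (adjusted p up to 0.13).

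Genes of the basal layer rose, while the contractile genes that normal basal cells also express did not. In the basal list, 20 of 27 tested genes were higher and 1 was lower, with a median of 1.21 over 28 members. *Krt15*, a keratin of basal and hair follicle bulge cells, had signals of 485, 908, 865, 558 and 906 against 45.9, 28.4, 23.6 and 1.07 and rose by 4.32 ± 0.58 (adjusted p = 5.5e-06). *Dsc3*, a desmosomal cadherin of stratified epithelia, lay between 311 and 369 against 1.33 to 18.05 and was at least 11.2-fold higher (adjusted p = 2.1e-10). *Krt17*, a keratin of hair follicles and of wounded or hyperproliferative epidermis, lay between 591 and 846 against 41.5 to 54.3 and rose by 3.51 ± 0.15 (adjusted p = 2.1e-14). The general markers were more moderate. *Krt14* had signals of 1883, 1633, 2196, 1933 and 2837 against 285, 324, 350 and 363 (2.59 ± 0.16, adjusted p = 1.3e-11), *Krt5* lay between 1092 and 1472 against 239 to 369 (1.98 ± 0.17, adjusted p = 8.7e-09), and *Trp63*, the transcription factor of basal identity, lay between 269 and 390 against 71.8 to 159 (1.42 ± 0.22, adjusted p = 2.5e-05). No small hyperplasia reached down to a control for any of these 6 genes. The member that fell, *Dst*, a linker of keratin to hemidesmosomes (-0.69 ± 0.20, adjusted p = 9.5e-03), has a further probe set that was called higher, so that its direction is not settled. With control tissue 1 and small hyperplasia 2 both left out, 15 basal genes were higher and 1 lower.

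Of 18 tested smooth muscle genes none was higher and 6 were lower (median -0.51 over 19). *Acta2*, smooth muscle actin, had signals of 2046, 2085, 2102, 1960 and 2046 against 3129, 3210, 3279 and 4075, a fall by 0.73 ± 0.19 (adjusted p = 5.4e-03). *Cnn1*, calponin, lay between 75.1 and 114 against 165 to 226 (-0.99 ± 0.28, adjusted p = 9.0e-03). *Synpo2*, an actin-binding protein of muscle, had signals of 127, 314, 83.2, 95.1 and 48.4 against 600, 340, 335 and 455 (-1.78 ± 0.30, adjusted p = 9.8e-05). Fitted with only the 9 arrays, 11 of the smooth muscle genes were lower. Smooth muscle genes are also expressed by the walls of blood vessels, and these fell as given below, so that the cells from which the loss came cannot be told apart.

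Luminal genes were mixed. Among 18 tested luminal keratin and junction genes 5 were higher and none lower (median 0.24), which fell to 3 without small hyperplasia 1. *Krt18*, a luminal keratin, had signals of 2219, 1639, 1694, 2397 and 2095 against 1323, 1877, 1689 and 2318, with overlapping groups and a difference of 0.17 ± 0.33 (adjusted p = 0.73). Members that rose were the cadherin *Cdh1* (1011 to 1162 against 216 to 454; 1.69 ± 0.15, adjusted p = 6.2e-09), the surface protein *Cd24a* (1.35 ± 0.16, adjusted p = 1.2e-06) and *Aldh1a3*, a retinaldehyde dehydrogenase of luminal progenitors (1.12 ± 0.25, adjusted p = 1.3e-03). The first of these is found in both layers. The paper also sorted cells of both layers as positive for the CD24 protein, which it reports as raised in basal cells of K5ΔNβcat glands. Of 18 tested genes of epithelial adhesion and identity, which also hold *Cdh1* and *Krt5*, 11 were higher and none lower (median 0.71), among them *St14*, the protease matriptase (1.41 ± 0.22, adjusted p = 3.2e-05). Among 12 tested genes of hormone-sensing luminal cells 3 were higher and 2 lower (median 0.45), near the shares of all tested genes (19.3% and 15.3%). *Esr1*, the oestrogen receptor, had signals of 316, 354, 362, 425 and 370 against 850, 661, 693 and 804, a fall by 1.01 ± 0.25 (adjusted p = 3.9e-03), and the lesions did not overlap with the controls. A further tested probe set of *Esr1* differed by -0.42 ± 0.30 (adjusted p = 0.30), and the call was lost with the mean over all its probe sets (-0.55, adjusted p = 0.071). *Pgr*, the progesterone receptor, had signals of 494, 178, 236, 320 and 479 against 224, 381, 168 and 108, which overlapped (0.63 ± 0.53, adjusted p = 0.38). *Stc2*, a secreted hormone, was called lower (-0.83 ± 0.26, adjusted p = 1.6e-02), a call that was lost without small hyperplasia 3 or control tissue 2 or 4 (adjusted p up to 0.058) and whose direction changed to 0.0863 when all probe sets of the gene were averaged. *S100a6*, a calcium-binding protein, rose by 1.12 ± 0.17 (adjusted p = 1.7e-05). None of 9 tested milk protein genes was called by limma (median 0.12 over 16 members), with 1 at an unadjusted p under 0.05.

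The largest rises were those of genes of cornifying epithelium and of the hair follicle. *Krt6a*, a keratin of hyperproliferative epidermis and hair follicles, had signals of 1770, 1404, 2079, 1408 and 2749 against 59.0, 1.48, 2.24 and 18.7, a difference of 5.93 ± 0.29 (adjusted p = 9.4e-14). Its partner gene *Krt6b*, close in sequence to *Krt6a*, had signals of 417, 206, 1492, 429 and 665 against 14.9 or less and was at least 17.2-fold higher (adjusted p = 2.3e-09). Both lay far above every control, with a wider range for *Krt6b*. *Sprr1a*, a precursor of the cornified envelope, had signals of 1279, 968, 1781, 1345 and 2392 against 47.4, 16.02, 7.91 and 12.8 (5.44 ± 0.25, adjusted p = 4.7e-14), and *Cst6*, a protease inhibitor of stratified epithelia, had signals of 1891, 1532, 1366, 1522 and 1750 against 49.6, 7.26, 4.43 and 11.5 (5.73 ± 0.33, adjusted p = 4.2e-12). *Klk7*, a protease that sheds cornified cells, rose by 4.45 ± 0.26 (adjusted p = 5.4e-12). Genes that stayed below 30 in every control included *Crct1*, at least 20.25-fold higher, and *Calm4*, a calmodulin-like protein of keratinocytes, at least 21.5-fold higher (adjusted p = 2.1e-14 and 2.1e-10). In the squamous list 19 of 21 tested genes were higher and none was lower, with a median of 2.26 over 26 members, or of 1.79 with genes dim in 1 group at their bound. Of the 21, 9 stayed below 30 on every array of 1 group and passed the cutoff through the other group alone, which favours a call in 1 direction.

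Hair follicle genes included the structural genes of the inner root sheath as well as the signals that start a follicle. *Krt25*, an inner root sheath keratin, had signals of 912, 1016, 988, 1085 and 1122 against 41.6, 8.62, 7.13 and 0.355 and rose by 5.26 ± 0.76 (adjusted p = 1.2e-05). *Krt71*, another keratin of that sheath, had signals of 591, 536, 615, 748 and 686 against 16.1, 19.4, 15.5 and 7.37 and was at least 21.0-fold higher (adjusted p = 2.0e-04). *Tchh*, trichohyalin, a protein of the sheath and medulla, had signals of 997, 718, 959, 691 and 867 against 22.9 or less and was at least 27.9-fold higher (adjusted p = 2.7e-08). These 3 genes varied little among the lesions. *Krtap8-1*, a protein of the hair cortex, varied more, with signals of 410, 318, 664, 454 and 1409 against 18.8 or less (at least 18.7-fold higher, adjusted p = 1.1e-03). Among the regulators, *Bmp2* had signals of 157, 193, 122, 98.6 and 111 against 39.4, 43.6, 36.7 and 50.6 (1.35 ± 0.27, adjusted p = 6.1e-04). Further regulators, named after their values were seen, were *Shh*, the ligand of hedgehog signalling (88.6 to 172 against 21.5 to 51.8; 1.64 ± 0.38, adjusted p = 1.9e-03), its receptor *Ptch1* (755 to 1527 against 230 to 293; 1.78 ± 0.43, adjusted p = 3.0e-03), its effector *Gli1* (at least 2.38-fold higher, adjusted p = 1.4e-04), the placode receptor *Edar* (at least 1.16-fold higher, adjusted p = 3.6e-04) and *Lhx2*, a factor of follicle stem cells (at least 2.62-fold higher, adjusted p = 2.3e-03). None of these 5 overlapped between the groups, which was known when they were named. Of all tested genes 26.3% did not overlap. In the hair and placode list 19 of 23 tested genes were higher and none was lower, with a median of 1.53 over 28 members, or of 1.13 with dim genes at their bound. Of these 23, 12 were below 30 on every array of 1 group and were thus tested through the other group alone. The counts of both lists were 19 without control tissue 1 and small hyperplasia 2, and control tissue 1 had the highest control mean of squamous genes (0.25 above the control mean, where the other controls lay between -0.13 and -0.03).

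**Figure D2:**
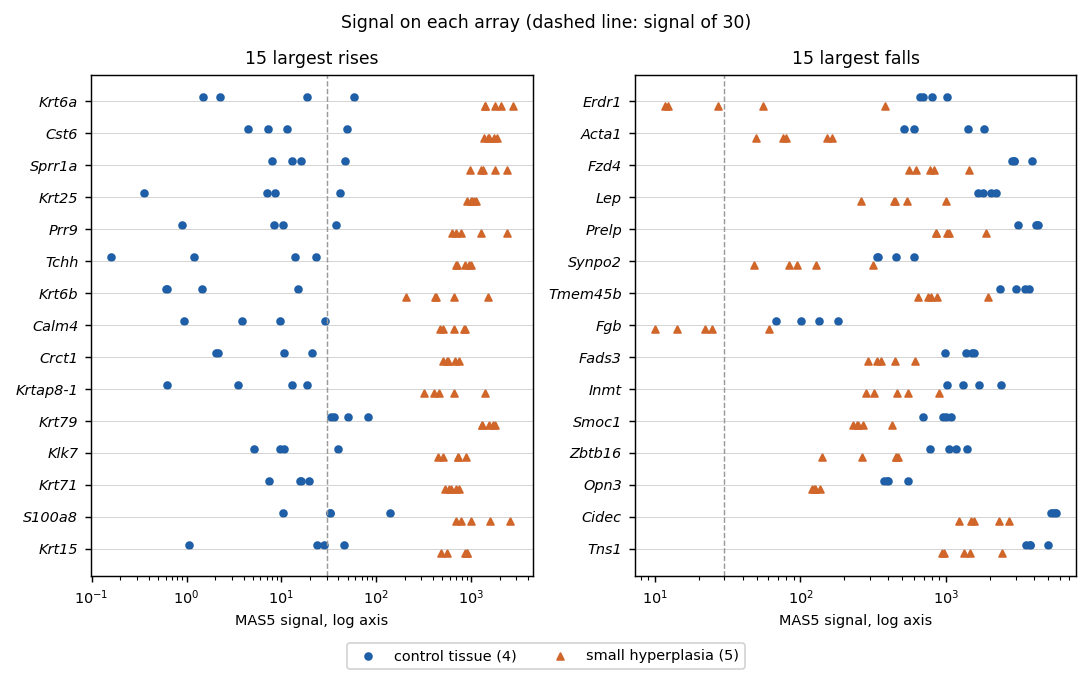
MAS5 signal on a log axis of the 15 genes with the largest rises and the 15 with the largest falls, with blue circles for 4 control tissues and orange triangles for 5 small hyperplasias. Most control signals of the rising genes lie under the dashed line at 30, while every lesion lies far above it, the lowest being *Krt6b* in small hyperplasia 2 at 206.

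Proliferation genes rose together. In the mitosis list 31 of 32 tested genes were higher and none lower, with a median of 1.497 over 33 members (1.06 with dim genes at their bound). Of the 32, 14 stayed below 30 on every array of 1 group and were thus tested through the other group alone. The count was 31 without any single array, but 22 to 32 under the other settings with a test, with medians from 0.72 to 2.22. *Mki67*, the antigen used to score cycling cells, had signals of 342, 210, 369, 370 and 354 against 64.2, 62.9, 74.3 and 60.0 and rose by 2.06 ± 0.14 (adjusted p = 3.4e-11). *Cdc20*, an activator of the anaphase-promoting complex, had signals of 243, 170, 279, 288 and 223 against 34.2, 35.0, 49.4 and 50.2 (2.13 ± 0.19, adjusted p = 1.1e-08), and *Top2a*, the topoisomerase of dividing cells, rose by 2.11 ± 0.21 (adjusted p = 4.5e-08). Small hyperplasia 2 had the lowest lesion signal in each of these genes and still lay above the controls. In the DNA replication list 24 of 30 tested genes were higher and 1 was lower (median 0.72 over 34). *Rrm2*, which makes deoxynucleotides, rose by 2.19 ± 0.20 (adjusted p = 2.2e-08), *Tk1*, thymidine kinase, by 1.94 ± 0.26 (adjusted p = 4.1e-06) and *Mcm5*, of the replicative helicase, by 1.90 ± 0.15 (adjusted p = 6.0e-10). The member that fell was *Gins4*, also of the helicase, with 161 to 177 against 212 to 266 (-0.43 ± 0.09, adjusted p = 7.9e-04).

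Genes of growth changed less. Of 33 tested genes of ribosome biogenesis 14 were higher and 1 was lower (median 0.26), with the largest rise in *Nhp2*, a protein of small nucleolar RNPs (0.83 ± 0.16, adjusted p = 4.4e-04), and the fall in *Nop10*, of the same particles (-0.38 ± 0.10, adjusted p = 4.2e-03). The call of *Nop10* was lost with the mean over its probe sets (-0.14, adjusted p = 0.28). Of 22 tested genes of the Myc network 8 were higher and none lower (median 0.20), which fell to 5 without small hyperplasia 5 or control tissue 4. *Mycn*, the family member of embryonic tissue, had signals of 130, 169, 120, 110 and 71.9 against 17.2, 2.98, 18.03 and 4.88 and was at least 3.87-fold higher (adjusted p = 6.5e-07). *Myc* itself, named for the study's interest in it, had signals of 297, 145, 254, 221 and 258 against 144, 125, 138 and 144 and rose by 0.67 ± 0.21 (adjusted p = 1.6e-02), with small hyperplasia 2 next to the controls. *Odc1*, which starts polyamine synthesis, rose by 0.83 ± 0.22 (adjusted p = 5.2e-03; 0.61 and 0.052 with the mean over its probe sets) and *Cdk4*, a kinase of G1 phase, by 0.77 ± 0.11 (adjusted p = 1.1e-05). Of 18 tested genes of cholesterol synthesis 6 were higher and none lower (median 0.29), among them *Cyp51* (0.81 ± 0.17, adjusted p = 8.9e-04). *Hsd17b7* was called by 1 of its 3 tested probe sets (0.90 ± 0.19, adjusted p = 8.4e-04), and not with the mean over all of them (0.26, adjusted p = 0.14).

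Genes of the fatty stroma fell. Of 17 tested adipocyte genes none was higher and 9 were lower (median -0.97). *Lep*, the fat hormone leptin, had signals of 536, 998, 445, 439 and 258 against 2020, 1793, 1649 and 2184, a fall by 1.93 ± 0.44 (adjusted p = 1.7e-03, and 0.070 with no constant added to the signals), with small hyperplasia 2 nearest to the controls. *Cidec* and *Plin4*, proteins of lipid droplets, fell by 1.62 ± 0.55 and 1.42 ± 0.49 (adjusted p = 2.6e-02 and 2.7e-02), but both calls were lost without small hyperplasia 4 or control tissue 1 or 2, that of *Cidec* also without small hyperplasia 5 and that of *Plin4* without small hyperplasia 3 (adjusted p up to 0.055 and 0.067). *Adipoq*, which encodes the hormone adiponectin and was named after its values were seen, had signals of 5809, 5445, 5461, 6451 and 7085 against 12493, 11844, 11329 and 12485. Its groups were far apart, yet its difference of -0.997 ± 0.76 was not called (adjusted p = 0.33) in the fit that shares 1 spread over all 25 arrays, with a mean signal of 265 in tumors. Fitted with only the 9 arrays, 15 adipocyte genes were lower, and with no offset 4 were. The brown fat genes of the list, also named after their values were seen, did not follow it. *Ucp1*, the uncoupling protein of brown fat, had signals of 749, 1075, 2419, 1917 and 2514 in lesions and of 3107, 75.3, 2488 and 55.6 in control tissue (1.73 ± 0.93, adjusted p = 0.16), and *Cidea* had signals of 546, 695, 1372, 1370 and 1165 against 1652, 391, 1635 and 243 (0.42 ± 0.67, adjusted p = 0.67). For both genes control tissues 1 and 3 were high and control tissues 2 and 4 low. Of 17 tested genes of fatty acid and triglyceride synthesis 1 was higher and 6 were lower (median -0.53). *Dgat1* and *Dgat2*, which make triglycerides, fell by 0.98 ± 0.14 and 0.91 ± 0.18 (adjusted p = 8.6e-06 and 5.3e-04), and *Scd2*, a desaturase, rose by 1.00 ± 0.22 (adjusted p = 1.1e-03).

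Endothelial genes fell together. Of 18 tested, 13 were lower and none higher (median -0.57). *Kdr*, the main receptor of vascular endothelial growth factor, had signals of 72.0, 167, 118, 122 and 82.5 against 286, 226, 261 and 333 (-1.23 ± 0.21, adjusted p = 1.1e-04). *Ptprb*, a phosphatase of endothelial junctions, had signals of 450, 507, 289, 339 and 250 against 716, 780, 803 and 930 (-1.14 ± 0.15, adjusted p = 4.4e-06), and *Cldn5*, a tight junction protein, fell by 0.92 ± 0.25 (adjusted p = 7.1e-03). Small hyperplasia 2 was again nearest to the controls, with an endothelial mean of -0.23 where the other 4 lay between -0.76 and -0.62. Of 8 tested pericyte genes 3 were lower and none higher (median -0.54), namely *Mcam* (-0.79 ± 0.22, adjusted p = 8.5e-03), *Rgs5* (-0.56 ± 0.16, adjusted p = 8.4e-03) and *Higd1b* (-0.52 ± 0.15, adjusted p = 8.5e-03), and 5 were lower when fitted with only the 9 arrays. None of 6 tested genes of lymphatic vessels and nerve sheath was called by limma (median 0.09), and 0 had an unadjusted p under 0.05. Of 13 skeletal muscle genes on the array only 2 reached the cutoff. *Acta1*, skeletal actin, had signals of 153, 166, 80.0, 75.7 and 49.7 against 516, 1417, 600 and 1822 (-3.10 ± 0.91, adjusted p = 1.1e-02).

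Other genes with large falls belong to no list. *Erdr1* had signals of 54.9, 378, 12.4, 11.7 and 27.1 against 1007, 802, 690 and 665 (-3.67 ± 1.04, adjusted p = 9.0e-03) and was thus the gene with the largest fall of those that passed a median of 100 without overlap, as well as 1 of the 8 most variable genes among the lesions. *Prelp*, a matrix protein, had signals of 1050, 1875, 845, 847 and 1021 against 4209, 4133, 3114 and 4253 (-1.84 ± 0.52, adjusted p = 8.4e-03). The most even fall was that of *Opn3*, an opsin, with signals of 136, 125, 126, 123 and 121 against 400, 549, 391 and 373 (-1.63 ± 0.15, adjusted p = 2.6e-08). *Tns1*, a linker of integrins to actin, *Fads3*, a desaturase-like protein, *Smoc1*, a matrix protein, *Zbtb16*, a transcription factor, *Inmt*, a methyltransferase, and *Tmem45b* fell by 1.57 to 1.74. *Fgb*, a fibrinogen chain, was also called lower (-1.73 ± 0.56, adjusted p = 2.0e-02), but not without control tissue 3 (adjusted p = 0.064) or with no constant added (adjusted p = 0.068).

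**Figure D3:**
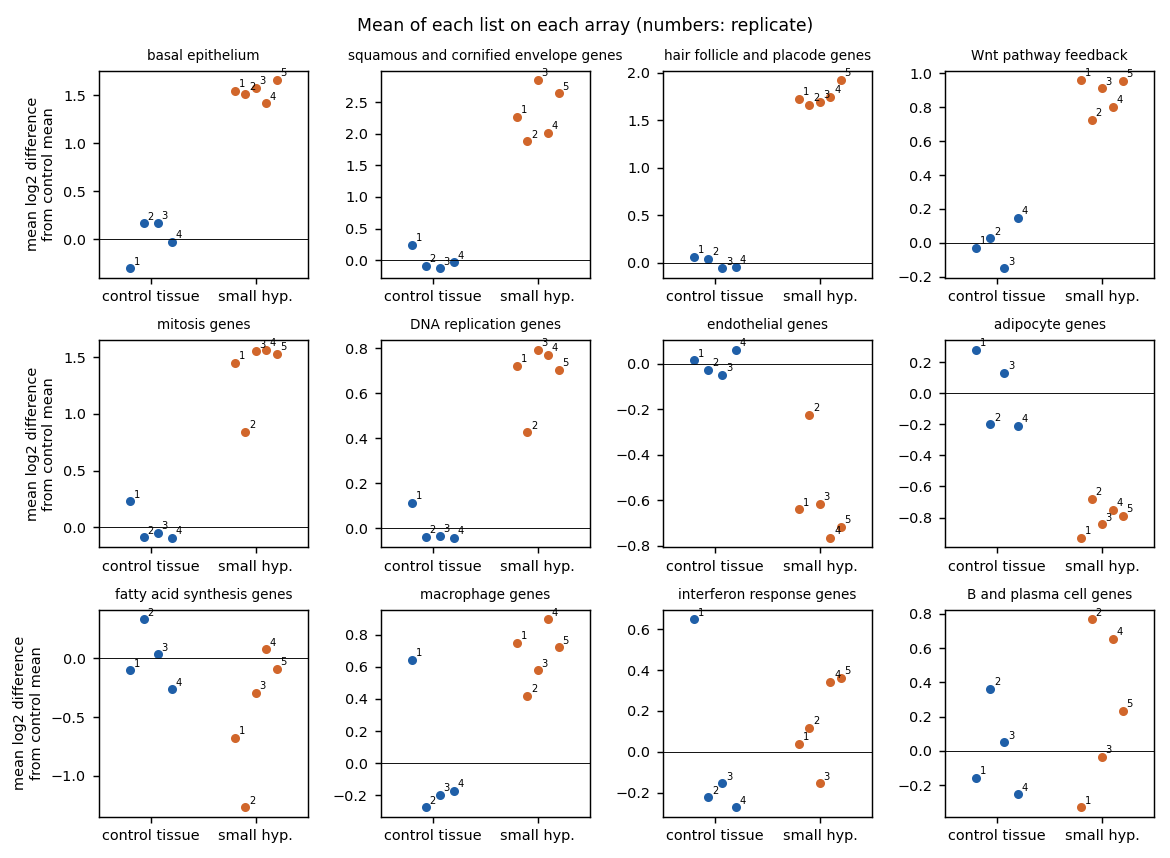
Mean over the members of 12 gene lists of the log2 difference from the control mean, with 1 point per array, blue for control tissue and orange for small hyperplasia, and the replicate number beside it. The groups are apart for basal, squamous, hair, Wnt feedback, mitosis, DNA replication, endothelial and adipocyte genes and overlap for fatty acid synthesis, macrophage, interferon and B cell genes.

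Matrix genes of activated fibroblasts rose in part. Of 17 tested fibroblast genes 5 were higher and 1 was lower (median 0.23). *Tnc*, the matrix protein tenascin C, had signals of 333, 150.1, 325, 355 and 319 against 106, 27.0, 37.1 and 45.1 (2.23 ± 0.42, adjusted p = 2.8e-04), with small hyperplasia 2 far below the other lesions. *Cthrc1*, a secreted protein of wound repair, rose by 1.32 ± 0.36 (adjusted p = 6.7e-03), and *S100a4* by 1.46 ± 0.40 (adjusted p = 7.3e-03), although control tissue 1 (787) lay among the lesions (722 to 1003). The member that fell was *Gsn*, gelsolin (-0.69 ± 0.14, adjusted p = 6.4e-04). Under quantile normalization *Gsn* differed by -0.04 (adjusted p = 0.86), and of its 5 tested probe sets 2 were called, both lower. Among collagens 7 of 21 tested were higher and none lower (median 0.45), with *Col12a1* (1.39 ± 0.41, adjusted p = 1.1e-02, and 0.068 with 64 added to the signals in place of 16) and *Col7a1*, of the anchoring fibrils under basal epithelium (1.21 ± 0.34, adjusted p = 7.9e-03). *Col1a1*, of fibrillar collagen, had signals of 2338, 1908, 2872, 3046 and 3395 against 1922, 1249, 655 and 1139 (1.19 ± 0.36, adjusted p = 1.4e-02), and its call was lost without control tissue 3 (adjusted p = 0.068) or with the mean over its probe sets (adjusted p = 0.052).

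Among proteases and their inhibitors 7 were higher and 3 lower of 19 tested (median 0.39), where 19.3% and 15.3% of all tested genes were. The lower count is thus near the share of all genes. *Mmp12*, the macrophage elastase, had signals of 740, 445, 631, 1587 and 700 against 160, 17.1, 41.0 and 43.2 (3.52 ± 0.59, adjusted p = 8.1e-05). *Timp1* had signals of 323, 152, 398, 448 and 454 against 97.0, 36.8, 25.7 and 29.8 (2.58 ± 0.34, adjusted p = 3.4e-06), while *Timp3* had signals of 1067, 1032, 528, 765 and 634 against 1900, 2137, 1666 and 1843 (-1.26 ± 0.22, adjusted p = 1.2e-04). These inhibitors of the same family thus moved apart. Only 1 member was lower without small hyperplasia 3, 4 or 5 or control tissue 1 or 4.

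Macrophage genes rose in part, and control tissue 1 lay among the lesions for many of them. Of 20 tested, 10 were higher and none lower (median 0.74 over 21), and 14 were higher with control tissue 1 and small hyperplasia 2 both left out. *Chil3*, a chitinase-like protein of alternatively activated macrophages, had signals of 239, 195, 262, 411 and 123 against 81.4, 1.90, 2.58 and 9.45 (3.03 ± 0.61, adjusted p = 5.5e-04). *Trem2*, a lipid receptor, was at least 1.16-fold higher (adjusted p = 8.8e-03), a call lost with signals below 30 set to 30 (adjusted p = 0.65). *Gpnmb*, a glycoprotein of lipid-laden macrophages, had signals of 416, 275, 285, 614 and 204 against 174, 93.2, 74.3 and 84.8 (1.58 ± 0.56, adjusted p = 3.4e-02), a call lost without small hyperplasia 1 or 4 or control tissue 2, 3 or 4 (adjusted p up to 0.086). The general markers were not called, as with *Cd68*, named after its values were seen, at 349, 371, 348, 506 and 433 against 685, 207, 180 and 224 (0.50 ± 0.33, adjusted p = 0.26). Control tissue 1 was thus the highest of all 9 samples for it.

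Of the neutrophil and mast cell list 3 of 8 tested genes were higher and none lower (median 0.47). *S100a8* had signals of 694, 2582, 1568, 991 and 775 against 141, 32.7, 10.4 and 32.5 (4.40 ± 0.40, adjusted p = 1.2e-08) and *S100a9* of 416, 1196, 1255, 729 and 579 against 114, 10.1, 5.17 and 24.9 (4.24 ± 0.45, adjusted p = 1.6e-07). Both encode the subunits of calprotectin, which stressed keratinocytes as well as neutrophils are known to make. *Csf3r*, the receptor of the neutrophil growth factor, had signals of 86.0 to 168 against 13.8 to 54.9 and was called higher (adjusted p = 4.2e-03). Among chemokines 6 of 25 tested were higher and 1 lower (median 0.59), and 10 were higher without control tissue 1. The count of 6 is not far above the 19.3% of all tested genes that were higher, and 1 is under the 15.3% that were lower. *Ccl8*, a ligand that attracts monocytes and T cells, had signals of 1676, 1731, 2218, 2842 and 3686 against 895, 349, 222 and 298 (2.56 ± 0.38, adjusted p = 1.8e-05), and *Ccl17* was at least 3.02-fold higher (adjusted p = 5.1e-05). *Ccl28*, which attracts antibody-secreting cells in the gland, was at least 1.03-fold lower (adjusted p = 1.8e-03), a call lost with signals below 30 set to 30 (adjusted p = 0.084). *Cxcl2*, which attracts neutrophils, was called higher (2.07 ± 0.62, adjusted p = 1.3e-02), but not without control tissue 2 (adjusted p = 0.051) or with 64 added (adjusted p = 0.11).

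No lymphocyte gene of the lists was called in small hyperplasias. Of 10 tested T and NK cell genes and 9 tested B and plasma cell genes none was called by limma (medians 0.00 and 0.32), with 1 and 2 at an unadjusted p under 0.05. *Jchain*, of secreted antibodies and named after its values were seen, had signals of 209, 2328, 641, 969 and 575 against 262, 851, 726 and 361 (0.51 ± 0.68, adjusted p = 0.60), with small hyperplasia 2 the highest and small hyperplasia 1 the lowest of the 9. Of 7 tested MHC class II genes 3 were higher (median 0.41), with *H2-DMa* at 0.85 ± 0.24 (adjusted p = 8.1e-03) and *H2-Ab1* at 0.73 ± 0.20 (adjusted p = 7.6e-03). Of 20 tested interferon response genes 2 were higher (median 0.07), and 4 were without control tissue 1, whose interferon mean lay 0.65 above the control mean, above every lesion. Its signal of *Oas1a* was 218, where the other controls lay between 74.8 and 76.6 and the lesions between 142 and 230 (0.77 ± 0.30, adjusted p = 4.9e-02, lost without any 1 of 6 arrays, with control tissue 1, small hyperplasia 2 and small hyperplasia 3 not among them). The part of control tissue 1 in the immune results was not tested beyond leaving it out.

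Among other signalling pathways, the immediate early genes held the largest changes. Of 19 tested, 6 were higher and 3 lower (median 0.25). *Egr3* had signals of 308, 273, 293, 226 and 361 against 19.0, 32.4, 27.3 and 20.1 (2.92 ± 0.20, adjusted p = 6.0e-11) and *Egr2* of 280, 164, 289, 156 and 297 against 50.3, 64.3, 44.0 and 40.7 (1.91 ± 0.23, adjusted p = 1.1e-06). Both are zinc finger factors induced by growth signals, and neither overlapped between the groups. *Ier3* rose by 1.27 ± 0.28 (adjusted p = 1.2e-03). *Dusp1* and *Ccn2* were called lower (-0.84 ± 0.29 and -0.90 ± 0.28), and the former call was lost without small hyperplasia 2 or 5 or control tissue 1, 2 or 3 (adjusted p up to 0.11), the latter without small hyperplasia 3 or control tissue 2 or 3 (adjusted p up to 0.094). Without control tissue 2 no immediate early gene was lower. Of 16 tested Notch genes 4 were higher and 3 lower (median 0.02). *Nrarp*, a feedback inhibitor of Notch, rose by 0.73 ± 0.17 (adjusted p = 2.0e-03), and *Mfng*, a glycosyltransferase that modifies Notch, fell by 0.94 ± 0.15 (adjusted p = 6.2e-05). Of 18 tested Bmp genes 5 were higher and 3 lower (median 0.12). The Notch and Bmp counts, and the lower count of immediate early genes, are not far from the shares of all tested genes (19.3% higher, 15.3% lower). The ligand *Bmp7* had signals of 77.7, 61.1, 96.3, 67.5 and 109 against 21.7, 20.6, 24.3 and 23.0 and was at least 2.68-fold higher (adjusted p = 1.7e-04). Another ligand, *Bmp6*, fell by 0.94 ± 0.16 (adjusted p = 1.2e-04), and *Id2*, a target of Bmp and Wnt signals, rose by 1.49 ± 0.19 (adjusted p = 3.3e-06). Of 8 tested genes of ErbB receptors and their ligands 5 were higher and 1 was lower (median 0.20). *Tgfa*, a ligand of the EGF receptor, lay between 72.4 and 110 against 23.1 to 35.7 (1.18 ± 0.23, adjusted p = 4.1e-04), while *Nrg4*, a ligand that brown fat is known to release, fell by 1.04 ± 0.19 (adjusted p = 2.2e-04).

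Genes of energy metabolism changed little and varied between arrays. Of 28 tested respiratory chain genes 1 was higher and 11 were lower (median -0.21). The lower count was 7 without small hyperplasia 2 or without control tissue 3, and 3 with control tissue 1 and small hyperplasia 2 both left out. The list mean was 0.15 and 0.23 above the control mean in control tissues 1 and 3 and -0.16 and -0.23 in control tissues 2 and 4, the same arrays that were high and low in *Ucp1*, and the part of brown fat in this result was not tested. *Cox5b* fell by 0.56 ± 0.15 (adjusted p = 5.2e-03) with overlapping groups, a call lost with control tissue 1 and small hyperplasia 2 both left out (-0.30, adjusted p = 0.093), and *Cox5a*, of the same complex, rose by 0.48 ± 0.11 (adjusted p = 1.2e-03). *Uqcrb* (-0.70 ± 0.13) has a further probe set called higher. Of 17 tested genes of glycolysis and hypoxia 2 were higher and 3 lower (median 0.16). *Egln3*, an oxygen sensor, had signals of 87.7, 214, 229, 148 and 248 against 31.5, 73.0, 50.0 and 42.3 (1.59 ± 0.33, adjusted p = 7.7e-04), and *Bnip3*, a mitophagy receptor, had signals of 1845, 1948, 1207, 1157 and 1049 against 4109, 3021, 3480 and 3489 (-1.32 ± 0.30, adjusted p = 1.6e-03). Both are known targets of hypoxia, and they changed in opposite directions.

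Small hyperplasias correlated more closely with each other than control tissues did, at 0.931 to 0.963 against 0.903 to 0.923. The median SD of log2 signals was 0.1903 over the 5 lesions and 0.1816 over the 4 controls, across 8279 genes. These genes were chosen by their highest lesion signal alone, so that some are dim in controls. The 16 added to each signal narrows the spread of dim genes. Whether the groups differed in spread per gene can therefore not be told from these medians. Among the most variable genes, some were high in 1 or a few lesions. *Sprr2f*, of the cornified envelope, had signals of 29.1, 69.3, 948, 93.1 and 28.9 in lesions, *Ifi202b*, an interferon-induced gene, of 11.9, 414, 12.7, 17.5 and 9.92, and *Igkv6-14*, of antibody light chains, of 3.90, 403, 103, 24.0 and 11.4. Of the others *Dmbt1* had a similar range in the controls, and the ranges of *Elovl6*, *Ido1* and *Rbm45* were narrower there. *Elovl6*, of fatty acid elongation, had signals of 486, 136, 1287, 1985 and 1471 in lesions and 664, 1863, 683 and 439 in controls, *Ido1*, which degrades tryptophan, ranged from 20.1 to 910 and from 128 to 780, *Dmbt1* from 29.8 to 580 and from 64.3 to 905, and *Rbm45* from 9.81 to 296 and from 59.6 to 161.

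The comparison of large with small hyperplasias uses the same 5 small hyperplasias as that with control tissue, so that both sets of differences are given side by side. Between large and small hyperplasias, 1175 of 23456 probe sets were higher (5.01%) and 1084 lower (4.62%), 9.63% in either direction. By genes these were 475 (4.1%) and 643 (5.55%) of 11594, together 9.64%. Of the 2237 genes higher in small hyperplasias 197 were higher still in large ones and 23 were lower, and of the 1776 lower genes 351 were lower still and 18 higher. Basal genes went on rising, with 10 of 27 higher and none lower (median 0.44), among them *Krt17* (1.15, adjusted p = 9.3e-05). That count ranged from 3 to 12 when single arrays were left out, with 3 without large hyperplasia 2. Wnt feedback genes had no call in either direction (median 0.15), and mitosis genes had 1 of 32 (median 0.17). *Wif1* and *Axin2* differed by 0.05 and 0.08 between the sizes (adjusted p = 0.96 and 0.83). Adipocyte genes had 7 further falls of 17 (median -0.80), endothelial genes 6 of 18 (median -0.49) and respiratory chain genes 17 of 28 (median -0.36; 9 to 23 without single arrays, with 9 without small hyperplasia 4 and 23 without small hyperplasia 2). *Lipe*, which breaks down stored fat and was named after its values were seen, fell from a mean of 1197 to 520 (-1.17, adjusted p = 1.7e-03).

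Lymphocyte genes were higher in large hyperplasias, while none was called in small ones against control tissue. T and NK cell genes had 8 of 12 higher and none lower (median 0.60), and B and plasma cell genes 10 of 12 (median 1.00). Both counts depend on single arrays. The T cell count ranged from 4 to 9, with 4 without small hyperplasia 1 and 5 without large hyperplasia 2. The B cell count was 1 without small hyperplasia 1 and 3 without large hyperplasia 1 or 2, while its median remained between 0.83 and 1.15. The mean of B cell genes was -0.33, 0.77, -0.03, 0.65 and 0.23 relative to the control mean in small hyperplasias 1 to 5. Signals of *Jchain* averaged 944 in small and 3964 in large hyperplasias (2.41, adjusted p = 1.9e-02).

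**Figure D4:**
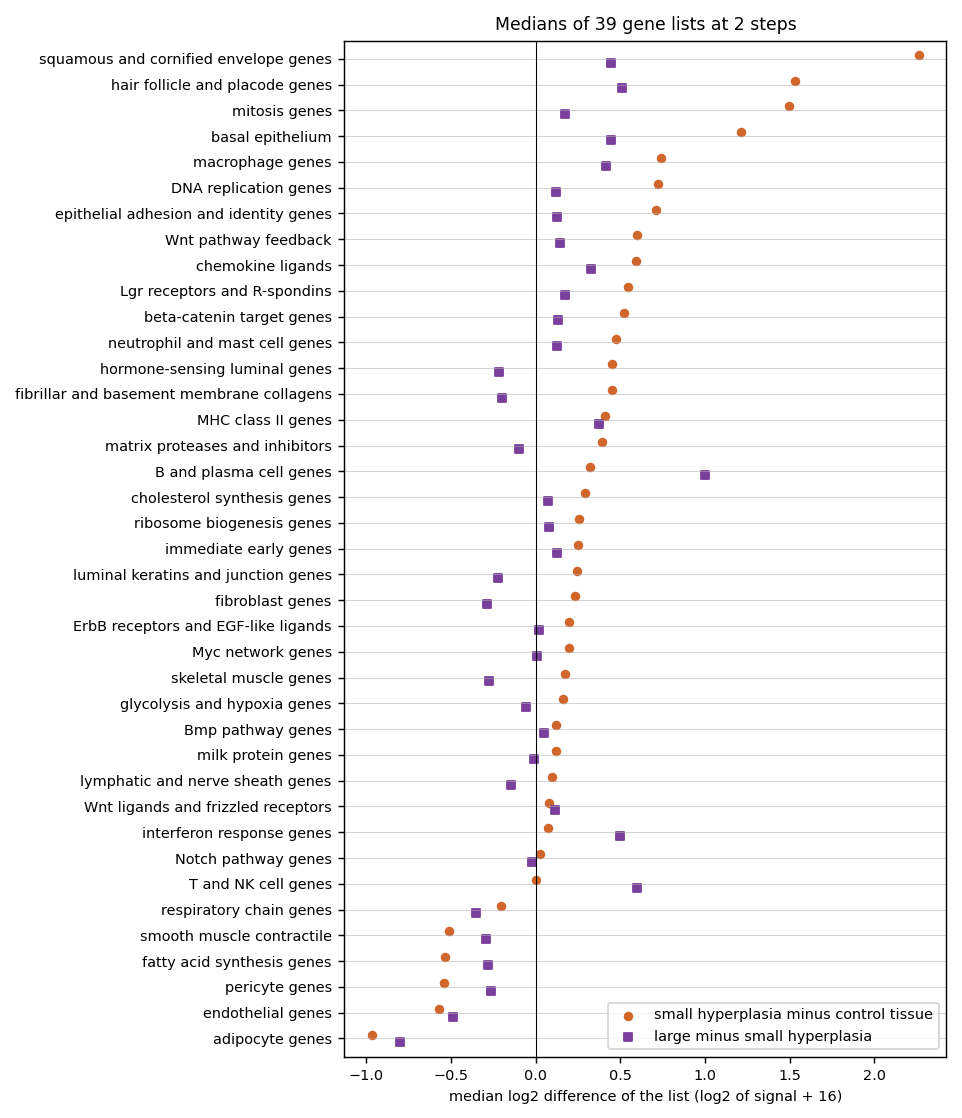
Median log2 difference of each gene list between small hyperplasia and control tissue (orange circles) and between large and small hyperplasia (purple squares). Squamous, hair, mitosis and basal genes have medians of 1.21 to 2.26 in the former and 0.17 to 0.51 in the latter, while B and plasma cell genes have 0.32 and 1.00.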

How the data were processed

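Total RNA of mammary tissue was prepared with a one-cycle labelling kit of Affymetrix and hybridised to mouse genome arrays, 1 per sample. The deposited values are linear intensities that the authors computed with MAS5 in Affymetrix Expression Console (version not given in the sources used here) and scaled to a target of 100, and each array's mean, trimmed by 2% at both ends, was checked to equal it. Of 45101 probe sets 64 controls were left out, and of the other 45037, 34945 have 1 gene symbol, 932 several and 9160 none in the platform table. Of those with 1 symbol, 34741 were matched by gene ID to RefSeq. For each gene the probe set of 1 symbol whose log2 signal averaged highest across the 25 tissue arrays was used, which gave 18193 genes.

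Groups and replicate numbers were taken from the sample labels. Tests were made in R 4.3.3 and limma 3.58.1 (lmFit, then contrasts.fit, then eBayes with a trend) on log2 of the signal plus 16, with 25 tissue arrays in 1 model and no covariate. Probe sets with the higher group median at least 30 were tested, adjusted by Benjamini-Hochberg over all of them with calls at an adjusted p under 0.05. Log2 differences carry their standard errors, and the offset makes differences of dim genes smaller than their ratio of signals. Folds are bounds against 30 for genes that stayed below 30 on all arrays of either group. Lists are described by counts and by the median over their members on the array, with no test. Members of the comparison and the 39 gene lists were chosen with earlier results of these data known.

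Named were, among called genes whose groups did not overlap and whose higher median reached 100, the 15 that rose and the 15 that fell most, further up to 3 called members per list and up to 2 that went against the others, 12 fixed genes and the 8 genes most variable among small hyperplasias. Genes outside this rule are said to be so or are shown with their promoter. Precision is limited by 5 and 4 arrays. The fit was tested on simulated data of 22973 probe sets of small hyperplasia and control tissue, where 79% of 100 probe sets changed 2-fold and 99% of 100 changed 4-fold were recovered, with 11 others called, and 0 were called with no change. Changed probe sets were drawn only from those with a mean signal of about 100 or more, so that the recovery of dimmer genes was not tested. Noise was normal and independent between probe sets, with 1 spread per probe set for all groups. Far fewer probe sets changed there than were called in the real data (31.2%). The recovery and the 0 calls may therefore not carry over to the real arrays. Alternatives were no offset, an offset of 64, no filter, signals below 30 set to 30, the mean in place of the median as filter, quantile normalization, only the 2 groups, no trend, a replicate block, the mean over probe sets, each array left out and the rule of the methods (ratio of group medians above 2, no test). Leaving out control tissue 1 and small hyperplasia 2 together was chosen after seeing the data.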

Additional observations from a re-analysis of the deposited data

Results flagged for a closer look

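Of 370 groups of 4 or 5 values examined among named genes and list means, 37 held 1 array that stood apart from the others of its group, where chance gives about 1 in 20. These groups share the same arrays and include genes chosen for their spread among the lesions, so that the 2 numbers are not a test. Small hyperplasia 2 stood apart from the other lesions in *Prelp* (1875), *Smoc1* (426), *Chrdl1* (309) and *Ifi202b* (414), which were higher there, and in *Mmp7* (23.5), *Mki67* (209.6) and *Tnc* (150.1), which were lower. Its list means were 0.84 for mitosis genes, 0.43 for DNA replication genes, 0.11 for luminal keratins and junction genes and 0.14 for collagens, each below the other lesions, and -0.23 for endothelial genes, above them.

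Control tissue 1 stood apart with high signals of *Krt6b* (14.9), *Vcan* (66.9), *Trem2* (17.1), *Oas1a* (217.9) and *Uqcrb* (11962) and a low signal of *Lgr5* (116.7). Its list means were 0.64 for macrophage genes, 0.65 for interferon response genes, 0.49 for chemokine ligands, 0.23 for mitosis genes and 0.11 for DNA replication genes, above the other controls, and -0.45 for luminal keratins and junction genes, below them.

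Among the other arrays, small hyperplasia 3 stood apart in *Ptgs2* (178) and *Sprr2f* (948), small hyperplasia 4 in *Tmem45b* (1936), and small hyperplasia 5 in *Lef1* (87.9) and, with a low signal, *Higd1b* (18.6). Control tissue 2 was high in *Met* (573) and in the mean of ribosome biogenesis genes (0.10), control tissue 3 was low in *Prelp* (3114), *Notum* (9.06) and *Stc2* (132) and high in *Cox5a* (2179), and control tissue 4 was high in *Fzd4* (3860) and low in *Nop10* (1622).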

How the results depend on the processing

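Under the alternatives other than the rule of the methods, 3370 to 4035 probe sets were higher and 2818 to 4270 lower in small hyperplasias than in control tissue, where a value of 1 array left out lay between 3370 and 4020 and between 2820 and 3414. The rule of the methods, a ratio of group medians above 2 with no test, gave 1530 and 771, and 546 and 312 for large against small hyperplasias. Without single arrays the latter comparison had 513 to 1455 higher and 685 to 1245 lower probe sets, the lowest without small hyperplasia 1 and large hyperplasia 1, so that its counts rest on single arrays more than those against control tissue. Of 137 named genes called, 102 were called under every alternative and 35 lost the call under at least 1, 20 of them without a single array. The direction turned for *Stc2* with the mean over its probe sets (0.0863, adjusted p = 0.81). The causes were not tested.

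With the replicate block 4001 probe sets were higher and 3284 lower, and 1308 and 1083 for large against small hyperplasias. Deviations of small hyperplasias and controls of the same number correlated at -0.031, -0.033, 0.049 and -0.144. The highest correlations with a control of another number were 0.036, 0.134, 0.040 and 0.159. These values show no clear pairing by number, and whether samples share an animal or a batch was not tested. The block changed the call of none of 144 named genes in small hyperplasias.

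Dim genes are limited by the background of 30, and 5 against 4 arrays limit each difference. The excess of rises over falls in number depends on the settings. Higher and lower probe sets numbered 3785 and 3887 with quantile normalization, 3689 and 3721 with an offset of 64, 3645 and 3653 with signals below 30 set to 30, and 3891 and 4270 with no filter.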

Other observations

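Genes known from brown fat varied widely among control tissues. *Ucp1* was 3107 and 2488 in control tissues 1 and 3 and 75.3 and 55.6 in control tissues 2 and 4, and *Cidea* was 1652 and 1635 against 391 and 243, while all 5 small hyperplasias lay between 749 and 2514 for *Ucp1*. These genes were chosen after their values were seen, and no sample was grouped by them.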
